A study of Mus musculus with 111 samples.

Results

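The casting response at day 14 was set against the casting response at day 2 in mouse gastrocnemius muscle, gene by gene, to find which genes changed early, late or at both times. The response of a day is the cast leg minus the control leg on a log2 scale, and the comparison is the day 14 response minus the day 2 response. Muscles were chosen by their labels as those of casting animals at day 14 or day 2, which gave 37 of the 111 arrays of the series. The animals were male C57BL/6 mice, 8 weeks old per the design text, whose right hindlimb was immobilised in a cast while the left leg stayed free. There were 9 cast and 9 control legs at day 14, from 9 animals, and 10 cast and 9 control legs at day 2, from 10 animals, of which 9 gave both legs. Each animal was killed at a single day, so day 14 and day 2 are different animals. The control is the other leg of a mouse that carries a cast, always the left one, and so leg side cannot be told apart from casting. Casting animals of day 7 (7 cast and 8 control legs, with 7 pairs) were not used to define the classes below and are given as a separate reading. Muscles of 7 naive mice, which received no manipulation, give a baseline from outside the casting animals.

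A muscle held still in a cast loses protein and shrinks. Loss of load and of stretch lowers genes that respond to tension, while FOXO transcription factors raise ubiquitin ligases that mark muscle proteins for the proteasome. The interstitial tissue of muscle, with its fibroblasts and resident macrophages, makes the extracellular matrix and the signals of inflammation, and can follow its own course in time.

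Each array gave a linear signal for 45101 probe sets, and a gene is represented here by its brightest probe set. Median signals of these arrays ran from 16.25 to 26.36, and the number of arrays limits the precision of every value. The cast legs of 3 animals of day 14 and of 1 animal of day 2 stood apart by a median signal over 22, and calls that change without these animals are given beside the gene or list; that fit also left out 2 animals of day 7 with such an array. Another animal of day 14 and another of day 2 lay far from the rest in the leg differences of 3 named genes each, and calls that depend on either are given beside the gene. As a check of the tissue, 12 myofibre markers summed to a signal of 65400 to 160800 in cast legs and 71890 to 189700 in control legs at day 14. They summed to 53810 to 166000 in cast legs and 65160 to 176900 in control legs at day 2, while 4 genes of other tissues summed to at most 103.2 in any cast leg of day 14. Naive muscles summed higher for the myofibre markers, to 168100 to 220200. In each of these 4 casting groups, 11 or 12 of the 12 were lower than naive, as were 67 to 70 of 72 oxidative phosphorylation genes. Levels against naive given below carry this shift of both legs, and its cause was not tested. RNA quality was read from the log2 ratio of the 3' over the 5' probe set of beta-actin and of Gapdh. The beta-actin ratio differed between cast and control legs by -0.33 (SD 0.32, n = 9 pairs) at day 14 and by -1e-04 (SD 0.40, n = 9 pairs) at day 2 (exact two-sided permutation p = 0.0704). For Gapdh these differences were 0.015 (SD 0.0163) and 0.0086 (SD 0.0266) in the same pairs (exact two-sided permutation p = 0.546). The part of RNA quality in the results was not tested.

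The casting response differed between day 14 and day 2 in 2286 of 16029 tested genes (14.3%, limma, adjusted p under 0.05). It was higher at day 14 in 1320 genes (8.24%) and lower in 966 (6.03%). Cast and control legs differed in 2118 genes at day 14 (13.2%) and in 3893 genes at day 2 (24.3%). Of these, 895 passed at both days, which is 42.3% of the day 14 genes and 23% of the day 2 genes, and 736 of the 895 moved in 1 direction. When the 4 animals whose cast leg had a high median signal were left out, 942 genes were higher and 631 lower at day 14.

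Early genes passed at day 2 and not at day 14, with a difference between the days that also passed, and there were 1320 of them (8.24%), 640 higher (3.99%) and 680 lower (4.24%) in cast legs. Late genes passed at day 14 only, again with a difference that passed, and there were 495 (3.09%), 336 higher (2.1%) and 159 lower (0.992%). Sustained genes passed at both days in 1 direction with no difference past the threshold, and there were 639 (3.99%), 244 higher (1.52%) and 395 lower (2.46%). A further 97 genes (0.605%) passed at both days in 1 direction but to a different degree, here called shifted, and 159 (0.992%) passed in opposite directions, here called reversed. Another 2406 genes (15%) passed at 1 day without a difference that passed, so their time course is unresolved, and 215 (1.34%) passed for the difference alone. With those 4 animals left out, 766 of the 1320 early, 247 of the 495 late and 341 of the 639 sustained genes stayed in their class. Fewer did so among the 159 reversed genes (56, or 35.2%) and the 97 shifted genes (22, or 22.7%).

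**Figure D1:**
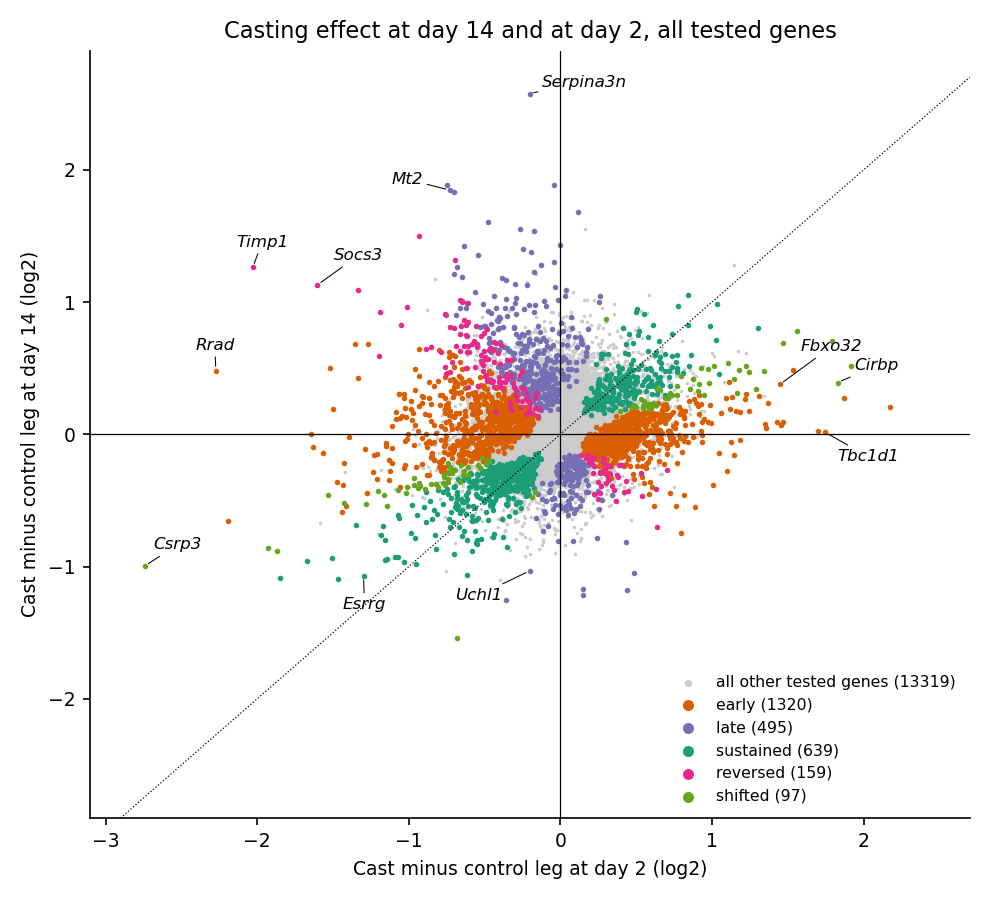
Cast minus control leg (log2) at day 14 (vertical axis) against day 2 (horizontal axis), 1 point per tested gene, coloured by time class, with the number of genes in each class in the legend and a dotted line of equal response. Early genes such as Rrad lie along the horizontal axis, late genes such as Serpina3n along the vertical axis, and Timp1 and Socs3 in the upper left, lower in cast legs at day 2 and higher at day 14.

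The animals of day 7 placed these classes in between. Cast and control legs differed in 1406 genes at day 7 (8.77%), 676 higher (4.22%) and 730 lower (4.55%). Of the sustained genes, 51.2% of those higher and 57.7% of those lower in cast legs passed at day 7 in the same direction. Of the early genes, 18.1% of those higher and 11% of those lower did so. Of the late genes, 8.93% of those higher and 28.9% of those lower had already passed at day 7. The median response of the early genes that were higher was 0.41 at day 2, 0.12 at day 7 and -0.02 at day 14, and that of the late genes that were higher was -0.17, 0.18 and 0.52 at the same days.

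**Figure D2:**
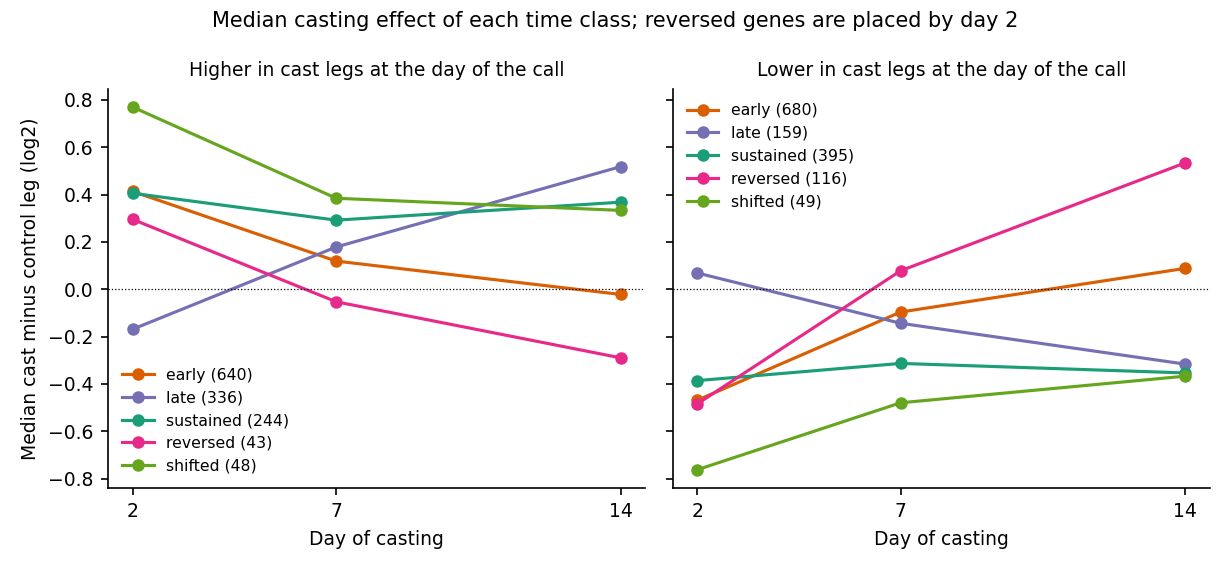
Median cast minus control leg (log2) at days 2, 7 and 14 for each time class, split by direction, with reversed genes placed by their direction at day 2. The medians of days 2 and 14 follow from how the classes were formed, and day 7 lies between them for the early, late and reversed classes, while the sustained genes stay near 0.41, 0.29 and 0.37 (higher) or -0.39, -0.31 and -0.35 (lower).

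The difference between the days was found in the cast legs for most genes. Cast legs of day 14 and day 2 differed in 3638 genes (22.7%), 2131 higher at day 14 (13.3%) and 1507 lower (9.4%). Control legs of the same days differed in 84 genes (0.524%), 32 higher (0.2%) and 52 lower (0.324%). Among the 680 early genes that were lower in cast legs, 590 differed between the cast legs of the days and 3 between the control legs. Among the 336 late genes that were higher, the counts were 258 and 15. These contrasts share arrays with the difference that defined the classes, so the counts are a description.

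Genes of protein breakdown did not follow 1 course. Of 35 muscle ubiquitin ligases, 9 had a lower response at day 14 and 3 a higher one, with 15 higher and 7 lower in cast legs at day 2 and 3 higher and 3 lower at day 14. Of 35 lysosomal genes, 1 had a lower response at day 14 and 12 a higher one, and of 14 calpains and caspases, 0 had a lower and 3 a higher one. The lysosomal genes Cd68, Ctss and Laptm5 are also among the macrophage markers described below. Over all tested genes 6.03% had a lower and 8.24% a higher response at day 14, near the share of ligases with a higher one. These shares apply to the list counts for the difference below as well. Fbxo32 (atrogin-1), a ubiquitin ligase that rises in many forms of muscle wasting, is one of the ligases. Its signal was 951 to 1803 (median 1462) in cast legs and 869 to 1669 (median 994) in control legs at day 14, and 1670 to 5663 (median 3944) in cast legs and 883 to 2502 (median 1220) in control legs at day 2. The cast legs of day 2 reached the highest signals, and the cast and control legs overlapped at both days. Its response was 1.45 (log2) at day 2, 0.88 at day 7 and 0.38 at day 14, and the day 14 response was lower than that of day 2 by 1.07 (SE 0.27, adjusted p = 0.00341). It was higher in the cast leg in 8 of 9 pairs at day 14, with a response that missed the threshold there (adjusted p = 0.211), and in 9 of 9 at day 2.

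Trim63, the ubiquitin ligase of sarcomere proteins, had a signal of 1718 to 2652 (median 2117) in cast legs and 1728 to 2607 (median 2182) in control legs at day 14. At day 2 the signal was 2121 to 8044 (median 4356) in cast legs and 1863 to 3426 (median 2171) in control legs. The legs covered almost the same range at day 14, and cast legs lay mostly above control legs at day 2. The difference between the days was -0.90 (SE 0.18, adjusted p = 0.000135), with a response of 0.03 at day 14, higher in 4 of 9 pairs, and 0.93 at day 2, higher in 9 of 9. Asb15, a muscle protein of the ankyrin and SOCS box family, differed between the days by -0.99 (SE 0.21, adjusted p = 0.00033).

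**Figure D3:**
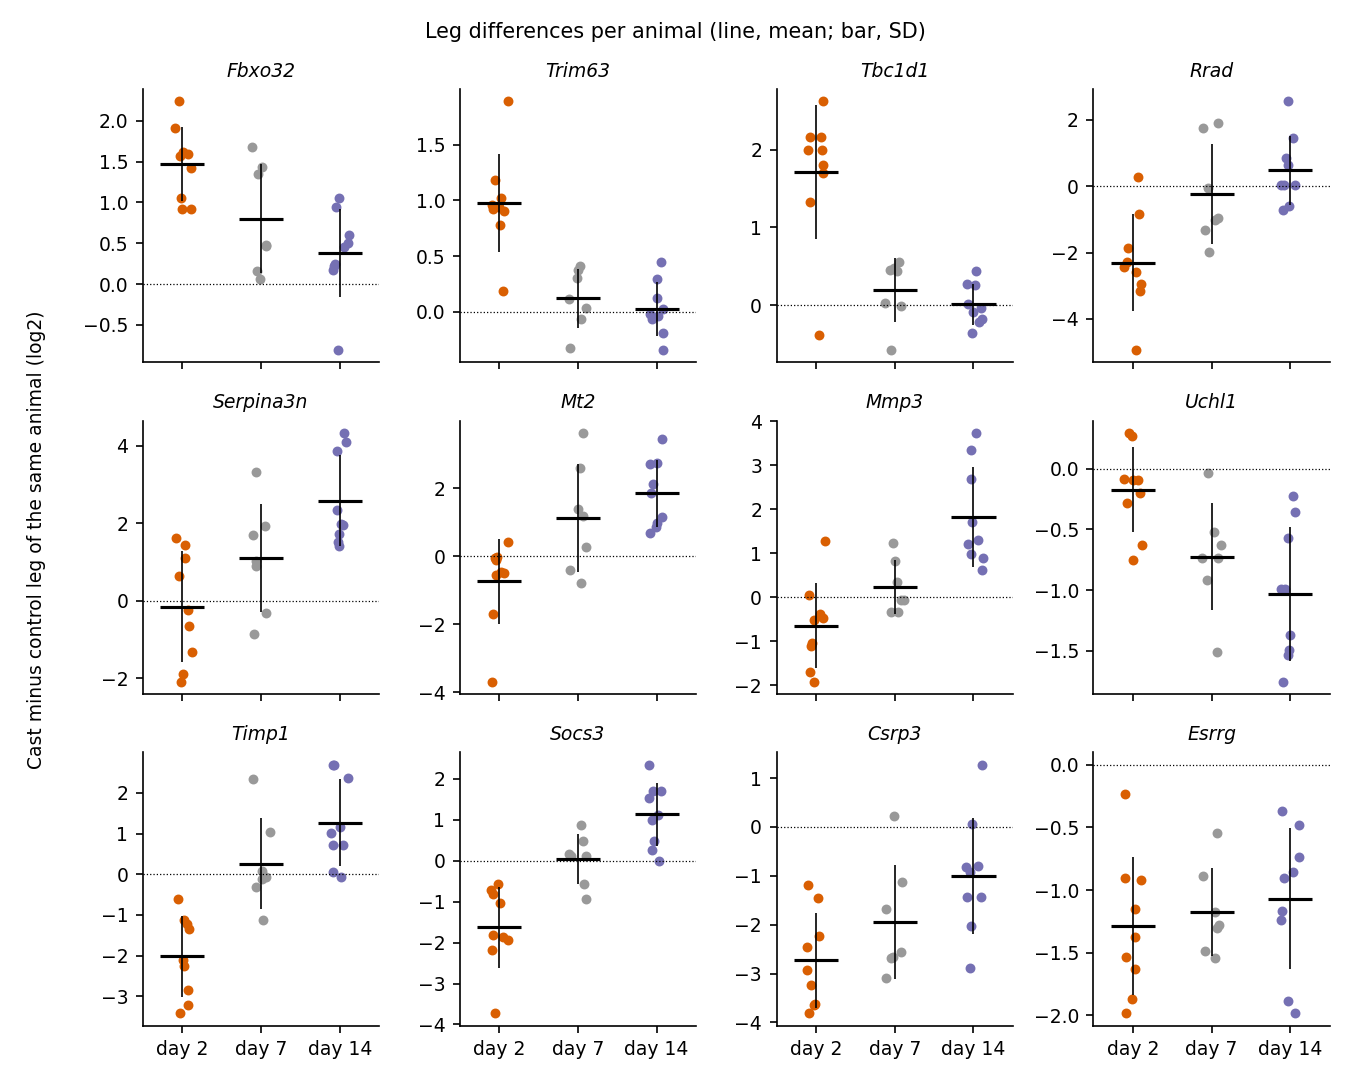
Cast minus control leg of the same animal (log2) for 12 genes at days 2, 7 and 14, 1 point per animal, with the mean and SD. Fbxo32, Trim63 and Tbc1d1 are high at day 2 only or mostly, Serpina3n, Mt2 and Mmp3 are high at day 14, Timp1 and Socs3 change sign, and Esrrg is below 0 in every animal at each day.

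The response of 39 genes of the 26S proteasome, which degrades ubiquitin-tagged proteins, was lower at day 14 in 25 and higher in 0, with a median difference of -0.34 against 0.06 over all tested genes. At day 2, 32 were higher in cast legs (background 11%) and 1 lower, and at day 7, 16 were higher and 0 lower. At day 14, 3 were higher (7.17%) and 1 lower (6.04%), so that 22 of the 39 were early genes. The ATPase subunits Psmc4 and Psmc1 of the base had the smallest p for the difference. Psmc4 had a response of -0.03 at day 14 and 0.66 at day 2 (difference -0.70, SE 0.09, adjusted p = 4.4e-08), and Psmc1 one of 0.15 and 0.71 at these days (difference -0.56, SE 0.09, adjusted p = 1.33e-06). Psmb1, a subunit of the core, and Usp14, a deubiquitinase that binds the proteasome, were early genes as well. With the mean of all probe sets, the difference for Psmb1 no longer passed (-0.22, adjusted p = 0.303) and Psmc4 was reversed, with a day 14 response just past the threshold (adjusted p = 0.0489). Psmc1 also passed at day 14 with quantile normalization (adjusted p = 0.0249) and with array weights (adjusted p = 0.0444). Without the 4 animals with a high median signal, 15 of the 39 were lower.

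The list's mean level, measured from the naive mean, was -0.16 to 0.16 (median -0.07) in cast legs and -0.15 to -0.01 (median -0.10) in control legs at day 14. It was -0.04 to 0.53 (median 0.38) in cast legs and -0.12 to 0.15 (median -0.02) in control legs at day 2. Only the cast legs of day 2 stood well above naive, with 1 of them below it.

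Autophagy genes followed the same course in part, with 11 of 36 lower at day 14 and 0 higher (7 lower without the 4 animals). Ulk1, the kinase that starts autophagy, had a response of -0.20 at day 14 and 0.65 at day 2 (difference -0.85, SE 0.13, adjusted p = 3.49e-07), with leg differences that did not overlap between the days. The cargo receptors Nbr1 (difference -0.51, SE 0.08) and Sqstm1 (-0.56, SE 0.13) were early genes too. Among 36 genes that respond to FOXO factors or glucocorticoids, 9 were lower at day 14 and 2 higher, and with the animal as a fixed block 14 were lower.

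Depp1, a FOXO target, had a signal of 79.8 to 194 (median 148) in cast legs and 76.4 to 193 (median 113) in control legs at day 14, and 160 to 1298 (median 513) in cast legs and 32.8 to 356 (median 138) in control legs at day 2. Its highest signals were those of the cast legs of day 2, and the difference between the days was -1.60 (SE 0.43, adjusted p = 0.006). Arrdc3, an arrestin-domain protein, differed by -1.27 (SE 0.22, adjusted p = 8.77e-06), with a response of 0.08 at day 14 and 1.35 at day 2.

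Tbc1d1, a Rab GTPase-activating protein of glucose uptake, had the largest difference among the early genes that were higher in cast legs and met the rule for naming. Its signal was 149 to 255 (median 184) in cast legs and 137 to 251 (median 187) in control legs at day 14, and 183 to 1144 (median 837) in cast legs and 160 to 239 (median 203) in control legs at day 2. All but 1 of the paired cast legs of day 2 lay above their control leg, and the legs overlapped at day 14. The difference was -1.73 (SE 0.22, adjusted p = 2.97e-08). Tmem37 differed by -1.68 (SE 0.21, adjusted p = 1.07e-08) and was higher in 9 of 9 pairs at day 2.

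Genes that were lower early included regulators of calcium entry, immediate early genes and chaperones. Rrad, a small GTPase that restrains calcium channels, had a signal of 46.1 to 383 (median 91.1) in cast legs and 50.7 to 109 (median 72.1) in control legs at day 14. At day 2 the signal of Rrad was 11 to 131 (median 37) in cast legs and 37.1 to 1096 (median 132) in control legs. Control legs of day 2 were the highest group, with overlap between legs at both days, and naive muscles were at 0.845 to 46.3. The response was 0.48 at day 14 and -2.27 at day 2, a difference of 2.75 (SE 0.53, adjusted p = 7.61e-05).

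Immediate early genes are switched on within minutes by activity or growth signals. Of 26, 9 had a higher response at day 14 and 1 a lower one, and 7 were early genes that were lower in cast legs. Fos had a signal of 73.2 to 298 (median 144) in cast legs and 77.5 to 181 (median 146) in control legs at day 14, and 31.2 to 410 (median 50.4) in cast legs and 124 to 475 (median 165) in control legs at day 2. The groups overlapped at both days, with most cast legs of day 2 below the control legs. The difference was 1.69 (SE 0.42, adjusted p = 0.00249), and Klf4 and Nr4a1, both transcription factors, were among the 7. The list's median level against naive was -0.05 in cast legs and 0.45 in control legs at day 2.

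Chaperones of the heat shock response were lower in cast legs at both days, more of them at day 2. Of 29, 10 were lower at day 14 and 0 higher, 20 were lower (13.3%) and 2 higher at day 2, and 11 were lower at day 7. For the difference between the days, 5 were higher and 3 lower. The list held 7 sustained genes, 4 early genes that were lower, 2 that were higher and 1 shifted gene. Hspa1b, the inducible form of Hsp70, had a signal of 104 to 428 (median 132) in cast legs and 187 to 436 (median 219) in control legs at day 14. For Hspa1b at day 2 it was 47.7 to 145 (median 83) in cast legs and 179 to 1081 (median 398) in control legs. The legs did not overlap at day 2 and overlapped at day 14, and the difference between the days was 1.54 (SE 0.42, adjusted p = 0.00647). Hspa1a had a response of -0.88 at day 14 and -1.87 at day 2 (difference 0.99, SE 0.32, adjusted p = 0.0258). Without the day 14 animal that lay apart, Hspa1b also passed at day 14 (adjusted p = 0.0421), the difference for Hspa1a no longer passed (adjusted p = 0.0981), and 3 chaperones rather than 5 were higher at day 14. The difference for Hspa1a was also lost without the 4 animals with a high median signal (1.06, adjusted p = 0.053). These genes are near-identical copies, so the arrays may not tell them apart.

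The promoter of Hspa1b is shown because its gene is bound by heat shock factor through inverted repeats of GAA. The window is chr17:34959189-34959488 on the minus strand of GRCm38.p6, from RefSeq, read 5′ to 3′ from 250 bases before to 50 bases after the gene's start, and capitals mark GAANNTTC, the motif searched on both strands.
Hspa1b: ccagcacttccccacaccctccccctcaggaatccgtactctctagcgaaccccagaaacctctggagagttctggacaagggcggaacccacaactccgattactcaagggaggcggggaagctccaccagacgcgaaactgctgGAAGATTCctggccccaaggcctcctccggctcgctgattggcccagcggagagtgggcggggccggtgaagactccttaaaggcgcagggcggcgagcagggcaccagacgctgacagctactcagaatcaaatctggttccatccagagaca
Of the 29 chaperone genes 25 had a window, and 14 of these (56%) held the motif, against 9.04% of 27025 genes with a window. A match describes the letters of the window and is no measured binding.

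Genes that respond to stretch of the sarcomere were lower in cast legs at day 2 in 12 of 22, with 0 higher, and at day 14 in 5, with 3 higher. Csrp3, the Z-disc protein MLP, is one of them. Its signal was 229 to 5659 (median 902) in cast legs and 1701 to 2871 (median 2120) in control legs at day 14, and 273 to 1541 (median 594) in cast legs and 3108 to 6558 (median 4198) in control legs at day 2. The legs did not overlap at day 2, and at day 14 the cast legs spread on both sides of the control legs. The response was -2.74 at day 2, -1.96 at day 7 and -0.995 at day 14 (difference 1.75, SE 0.45, adjusted p = 0.00338). Ankrd2, a stretch-responsive ankyrin repeat protein, followed with -1.93, -1.79 and -0.86 at these days (difference 1.07, SE 0.35, adjusted p = 0.0276). Leaving out the 4 animals with a high median signal took away the day 14 call of Csrp3 and the difference call of Ankrd2, and the call of Ankrd2 was also lost without the day 14 animal that lay apart (adjusted p = 0.0825). Abra, an actin-binding protein of striated muscle, had a response of -0.02 at day 14 and -1.39 at day 2 (difference 1.37, SE 0.19, adjusted p = 1.49e-07).

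Late genes were led by acute-phase, metal-binding and protease genes. Serpina3n, a secreted inhibitor of serine proteases, had a signal of 101 to 662 (median 161) in cast legs and 24.6 to 54.3 (median 30.4) in control legs at day 14. Its day 2 signal was 21.4 to 372 (median 53.9) in cast legs and 13.7 to 629 (median 35.8) in control legs. The legs were fully separate at day 14 and overlapped at day 2. The response was -0.20 at day 2, 1.19 at day 7 and 2.58 at day 14, and the difference between day 14 and day 2 was 2.78 (SE 0.58, adjusted p = 0.000249).

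Mt2, a metallothionein that binds zinc and copper, had a signal of 563 to 3345 (median 1814) in cast legs and 273 to 690 (median 353) in control legs at day 14, and 337 to 2137 (median 480) in cast legs and 288 to 6042 (median 1107) in control legs at day 2. The leg differences of the days did not overlap, being above 0 in 9 of 9 pairs at day 14 and in 1 of 9 at day 2. The difference was 2.58 (SE 0.52, adjusted p = 0.000171). Day 14 minus day 2 was 1.03 in the cast legs (adjusted p = 0.0374) and -1.54 in the control legs (adjusted p = 0.0338). The control legs are subtracted, so their fall adds to the difference. Mt1, its neighbour on chromosome 8, differed by 1.95 (SE 0.52, adjusted p = 0.00469). With only the casting arrays of day 14 and day 2 in the fit, Mt1 passed for the difference but at neither day.

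The promoters of both metallothioneins are shown because metal-responsive transcription factor binds repeated copies of 1 short element there. The windows lie on the plus strand of GRCm38.p6 at chr8:94172368-94172667 for Mt2 and chr8:94178839-94179138 for Mt1. Capitals mark the core TGCGCNC or TGCACNC on either strand, with 4 matches in Mt2 and 3 in Mt1.
Mt2: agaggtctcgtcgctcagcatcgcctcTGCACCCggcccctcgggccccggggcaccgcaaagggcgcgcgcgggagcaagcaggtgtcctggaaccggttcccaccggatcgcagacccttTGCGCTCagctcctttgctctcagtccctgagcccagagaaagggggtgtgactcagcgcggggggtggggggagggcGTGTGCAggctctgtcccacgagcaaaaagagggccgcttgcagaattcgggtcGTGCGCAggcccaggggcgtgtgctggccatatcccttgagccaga
Mt1: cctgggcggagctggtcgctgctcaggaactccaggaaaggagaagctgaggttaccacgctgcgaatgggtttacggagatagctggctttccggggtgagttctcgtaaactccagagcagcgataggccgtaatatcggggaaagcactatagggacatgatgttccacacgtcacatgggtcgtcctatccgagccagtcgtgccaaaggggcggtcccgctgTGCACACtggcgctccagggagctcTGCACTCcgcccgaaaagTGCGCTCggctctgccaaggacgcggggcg
At least 1 match was present in 25.7% of all 32851 promoter windows of this length.

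Mmp3, a matrix metalloproteinase, had a signal of 45.6 to 307 (median 58.5) in cast legs and 17.1 to 28.8 (median 21) in control legs at day 14, and 9.97 to 116 (median 20.4) in cast legs and 20.1 to 103 (median 35.7) in control legs at day 2. The legs were separate at day 14 and overlapped at day 2, and the difference was 2.53 (SE 0.40, adjusted p = 1.63e-06). Without the day 2 animal that lay apart, Mmp3 was a reversed gene, as it was with a pseudocount of 1, a stricter filter or array weights. Il6, the cytokine that drives the acute-phase response, was dim, with a signal of 6.3 to 108 (median 12.8) in cast legs and 0.371 to 8.27 (median 1.55) in control legs at day 14. At day 2 its signal was 0.274 to 20.1 (median 4.2) in cast legs and 0.951 to 52.2 (median 6.74) in control legs. It was higher in the cast leg in 9 of 9 pairs at day 14 and in 4 of 9 at day 2, and the difference was 2.08 (SE 0.41, adjusted p = 0.000137). Ccl12 and Cxcl5, chemokines for monocytes and neutrophils, differed by 2.64 (SE 0.53) and 2.06 (SE 0.45). Il6 and Cxcl5 were too dim to be tested under the stricter filter.

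Lgals3 (galectin-3), which macrophages make, had a signal of 195 to 380 (median 245) in cast legs and 74.6 to 157 (median 91) in control legs at day 14, without overlap. At day 2 the ranges of 74.8 to 281 (median 135) in cast legs and 50.4 to 537 (median 122) in control legs overlapped, and the difference was 1.44 (SE 0.33, adjusted p = 0.000864). Myog, the myogenic factor that rises after loss of nerve supply, was a late gene with a smaller difference of 0.68 (SE 0.20, adjusted p = 0.0117), which no longer passed without the 4 animals with a high median signal. Without the day 14 animal that lay apart it missed the threshold at day 14 (adjusted p = 0.0593). Its control legs changed by -0.53 from day 2 to day 14 (adjusted p = 0.0689), a fall that adds to the difference.

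Late genes that were lower in cast legs were fewer. Uchl1, a deubiquitinase, had a signal of 31.3 to 64.5 (median 47.1) in cast legs and 74.8 to 153 (median 97.4) in control legs at day 14, and 31.5 to 62.3 (median 41.5) in cast legs and 39.2 to 74.6 (median 51.1) in control legs at day 2. The control legs of day 14 lay above every other group, and the difference of -0.83 (SE 0.23, adjusted p = 0.00818) went with a rise of 0.95 in control legs (adjusted p = 0.00121) and 0.12 in cast legs (adjusted p = 0.707). Actc1, cardiac actin, which is re-expressed in young and regenerating fibres, had a response of 0.15 at day 2, -2.52 at day 7 and -1.17 at day 14 (difference -1.32, SE 0.40, adjusted p = 0.0148). On leaving out the 4 animals with a high median signal, its difference was -1.08 (adjusted p = 0.141).

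Genes of fatty acid oxidation made up part of this group. Of 34, 11 had a lower response at day 14 and 2 a higher one, or 6 lower without the 4 animals, and 16 were lower in cast legs at day 14, against 7 at day 2. In all, 7 of them were late genes, among them the acyl-CoA dehydrogenase Acads, with a response of -0.50 at day 14 and 0.05 at day 2 (difference -0.55, SE 0.10, adjusted p = 5.49e-05), and the dienoyl-CoA reductase Decr1 (difference -0.42, SE 0.08, adjusted p = 0.00014). Cpt2, the carnitine palmitoyltransferase of the inner mitochondrial membrane, reversed, with -0.39 at day 14 and 0.27 at day 2 (difference -0.66, SE 0.11, adjusted p = 6.58e-06). It was lower in 9 of 9 pairs at day 14 and higher in 6 of 9 at day 2, and it passed at no day with the mean of all its probe sets. Acads was lower in the cast leg at day 7 as well (-0.29, adjusted p = 0.013).

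A group of 159 genes reversed, most of them lower in cast legs at day 2 and higher at day 14 (116 genes, 0.724% of those tested). Timp1, an inhibitor of metalloproteinases, had a signal of 79.1 to 623 (median 122) in cast legs and 52 to 110 (median 72.5) in control legs at day 14. Its day 2 signal was 22.4 to 111 (median 43.6) in cast legs and 60.5 to 565 (median 186) in control legs. Its leg differences did not overlap between the days, with the cast leg higher in 8 of 9 pairs at day 14 and in 0 of 9 at day 2. The response was 1.26 at day 14 and -2.03 at day 2, a difference of 3.29 (SE 0.46, adjusted p = 1.12e-07). From day 2 to day 14 the cast legs changed by 1.93 (adjusted p = 3.99e-06) and the control legs by -1.36 (adjusted p = 0.0346). The control legs are subtracted, so their fall adds to the difference.

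Socs3, the feedback inhibitor of interleukin-6 signalling, had a signal of 79.6 to 295 (median 119) in cast legs and 40.2 to 97.7 (median 55.7) in control legs at day 14, and 27.4 to 139 (median 35.7) in cast legs and 54.9 to 511 (median 147) in control legs at day 2. Naive muscles lay at 36.7 to 62.3, so the cast legs of day 14 and most control legs of day 2 were the raised groups. The response was 1.13 at day 14 and -1.60 at day 2 (difference 2.73, SE 0.37, adjusted p = 4.91e-08). The promoter of Socs3 is shown because STAT proteins act through TTCNNNGAA, marked in capitals, in the window chr11:117969317-117969616 on the minus strand of GRCm38.p6.
Socs3: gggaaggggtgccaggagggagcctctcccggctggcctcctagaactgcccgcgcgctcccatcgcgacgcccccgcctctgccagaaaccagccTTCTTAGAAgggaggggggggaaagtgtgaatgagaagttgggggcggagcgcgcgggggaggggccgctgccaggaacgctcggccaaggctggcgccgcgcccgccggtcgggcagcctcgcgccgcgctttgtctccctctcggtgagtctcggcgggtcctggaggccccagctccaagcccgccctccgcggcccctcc
Of 22 genes of the interleukin-6 family and acute phase with a window, 2 held this motif (9.09%), against 9.55% of all genes with one. Of all 25 tested, 11 had a higher response at day 14 and 1 a lower one, with a median difference of 0.80.

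Ankrd1, another stretch-responsive ankyrin repeat protein, went against Ankrd2 in the later samples. Its signal was 317 to 990 (median 408) in cast legs and 140 to 357 (median 224) in control legs at day 14, and 62.7 to 429 (median 200) in cast legs and 256 to 1060 (median 391) in control legs at day 2. Cast legs were mostly higher at day 14 and mostly lower at day 2, with overlap at both. The difference was 2.42 (SE 0.38, adjusted p = 1.33e-06). Ccl2, a monocyte chemokine, passed at day 14 by a narrow margin (0.93, adjusted p = 0.0487) and at day 2 in the other direction (-1.19, adjusted p = 0.00306). It lost the call at day 14 under several settings, such as a fixed block for each animal, and without the day 14 animal that lay apart (adjusted p = 0.161).

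Macrophage genes reversed as a list. The response of 27 markers was higher at day 14 in 23 and lower in 0, with a median difference of 1.27. At day 14, 24 were higher in cast legs and 0 lower, and at day 2, 16 were lower and 1 higher. At day 7, 3 were higher and 0 lower. Mrc1, the mannose receptor, had a response of 1.01 at day 14 and -0.65 at day 2 (difference 1.65, SE 0.22, adjusted p = 4.4e-08), and Cd68, a lysosomal glycoprotein, one of 0.99 and -0.62 (difference 1.61, SE 0.29, adjusted p = 3.37e-05). Of the 159 reversed genes, 56 stayed reversed without the 4 animals with a high median signal, and 99 did when only the day 2 animal among them was left out. Cd68 was a late gene without that single animal, and with a fixed block for each animal (adjusted p = 0.0522 at day 2).

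The summed signal of the 27 markers was 5581 to 12620 (median 6811) in cast legs and 3092 to 6429 (median 4167) in control legs at day 14. At day 2 it was 2448 to 7930 (median 3061) in cast legs and 2651 to 9432 (median 4033) in control legs, against 2347 to 3335 in naive muscles. Measured from naive, the list's mean level was 1.25 (SD 0.40) in cast legs and 0.52 (SD 0.28) in control legs at day 14. At day 2 it was 0.26 (SD 0.41) in cast legs and 0.72 (SD 0.58) in control legs. Cast legs of day 14 were the highest group, and at day 2 the cast legs lay nearer to naive than the control legs did. In whole muscle, more cells of a type and more RNA per cell cannot be told apart, and the naive mice are not casting animals.

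Complement genes followed, with 13 of 15 higher at day 14 and 0 lower (median difference 1.24), 11 higher in cast legs at day 14 and 9 lower at day 2. C1qa, a chain of the C1q recognition protein made by macrophages, had a response of 0.64 at day 14 and -0.89 at day 2 (difference 1.53, SE 0.28, adjusted p = 3.3e-05). The properdin gene Cfp had one of 0.80 at day 14 and -0.70 at day 2 (difference 1.502, SE 0.30, adjusted p = 0.000167), and it was a late gene without the day 2 animal with a high median signal and with only the casting arrays of day 14 and day 2 in the fit, and passed for the difference alone with a fixed block for each animal. Several complement genes are also among the macrophage markers. Of 22 chemokines and receptors, 11 were higher at day 14 and 0 lower.

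Other marker lists moved less than the macrophage markers, and the fibroblast list moved the most among them. For the difference between the days, 7 of 13 fibroblast markers were higher and 0 lower, with a median difference of 0.59. In the remaining lists, 1 of 11 neutrophil, 2 of 12 endothelial, 1 of 8 satellite cell and 2 of 12 tenocyte markers were higher, and 1 tenocyte marker was lower. Over all tested genes 8.24% were higher and 6.03% lower, and counts of 1 in lists of this size lie near these shares. None of 13 lymphocyte, 10 adipocyte, 8 Schwann cell or 12 myofibre markers passed in either direction, while 0, 2, 3 and 0 of them had an unadjusted p under 0.05. Some members passed under other settings. With a fixed block for each animal, Pmp22 (Schwann cell, adjusted p = 0.00114) was higher. Plin4 (adipocyte, 0.00199) and Ighm (lymphocyte, 0.0078) were lower in that fit. Fabp4, also of adipocytes, was higher with array weights (adjusted p = 0.0424) and with only the casting arrays of day 14 and day 2 (0.0478). With quantile normalization the myofibre markers Acta1 (0.018) and Ckm (0.0169) were higher. The 11 neutrophil markers summed to 228 to 5738 in cast legs and 156 to 6900 in control legs at day 14, and to 218 to 1012 in cast legs and 166 to 757 in control legs at day 2. The part of these markers in the results for other genes was not tested.

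**Figure D4:**
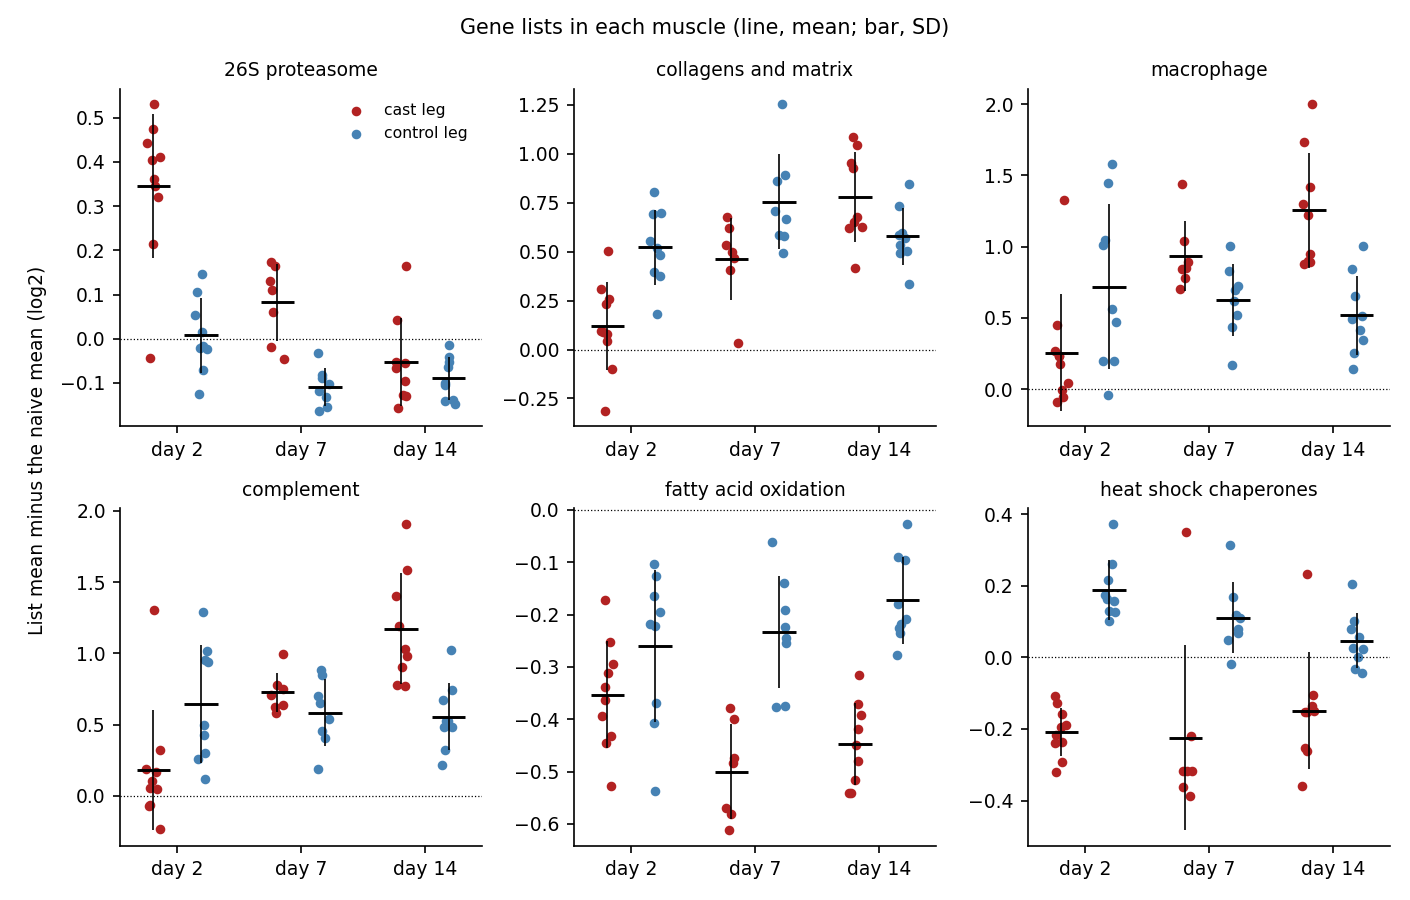
Mean level of 6 gene lists in each muscle, as log2 difference from the naive mean, for cast and control legs at days 2, 7 and 14, with the mean and SD of each group. Proteasome genes are raised in the cast legs of day 2, macrophage and complement genes are highest in the cast legs of day 14, and heat shock genes are lower in cast than in control legs on average at each day.

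Collagens and other matrix genes were lower in cast legs early. The response of 26 of 44 was higher at day 14 and of 0 lower, with a median difference of 0.65. At day 14, 8 were higher and 1 lower in cast legs, and at day 2, 2 were higher and 24 lower. Serpinh1, the collagen chaperone Hsp47, had a signal of 649 to 1032 (median 750) in cast legs and 696 to 1189 (median 925) in control legs at day 14, and 187 to 732 (median 313) in cast legs and 692 to 1555 (median 866) in control legs at day 2. Cast legs of day 2 were the low group, with 1 reaching the range of the control legs. The difference was 1.21 (SE 0.24, adjusted p = 0.000155), and the cast legs alone gave 1.21 while the control legs gave -0.00. Fn1 (fibronectin) and Col3a1 (type III collagen) were early genes as well, with differences of 1.13 (SE 0.23) and 0.90 (SE 0.22). The class of Col3a1 changed with the setting: it passed for the difference alone without the day 2 animal with a high median signal and was reversed without the day 14 animal that lay apart and under 4 other settings. Fn1 was reversed with quantile normalization, with array weights and with only the casting arrays of day 14 and day 2 in the fit.

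Vcan, the proteoglycan versican, reversed, with a response of 0.59 at day 14, higher in 9 of 9 pairs, and -1.19 at day 2, lower in 9 of 9 (difference 1.78, SE 0.26, adjusted p = 2.51e-07). It was an early gene when the 4 animals with a high median signal were left out. Col1a1, the main chain of type I collagen, passed in none of the comparisons of day 14, day 2 and their difference (difference 0.07, SE 0.34, adjusted p = 0.933). The mean level of the matrix list from naive was 0.78 (SD 0.23) in cast legs and 0.58 (SD 0.15) in control legs at day 14, and 0.12 (SD 0.23) in cast legs and 0.52 (SD 0.19) in control legs at day 2. At day 2 the cast legs were the group closest to naive. Of 24 matrix proteases and inhibitors, 9 were higher at day 14 and 0 lower, and with array weights 14 were higher.

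Sustained genes kept their direction from day 2 to day 14. Esrrg, a nuclear receptor of oxidative metabolism, had a signal of 112 to 392 (median 214) in cast legs and 351 to 574 (median 425) in control legs at day 14, and 94.9 to 235 (median 117) in cast legs and 203 to 402 (median 336) in control legs at day 2. It was lower in the cast leg in 9 of 9 pairs at either day. The response was -1.30 at day 2, -1.17 at day 7 and -1.07 at day 14, and the day 14 minus day 2 difference was 0.23 (SE 0.20, adjusted p = 0.521). Map2k6, a kinase upstream of p38, had a signal of 140 to 227 (median 153) in cast legs and 256 to 412 (median 312) in control legs at day 14, and 65 to 147 (median 113) in cast legs and 167 to 294 (median 237) in control legs at day 2. Its legs did not overlap at either day, and the difference was 0.07 (SE 0.15, adjusted p = 0.841).

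Casq2, a calcium-binding protein of the sarcoplasmic reticulum, had a response of -1.16 at day 2, -1.51 at day 7 and -0.95 at day 14. Bdh1, an enzyme of ketone body use, had one of -1.14, -1.76 and -0.94 at these days, and Fabp3, a fatty acid carrier, one of -0.52, -1.07 and -0.79. For Fabp3 the difference between day 14 and day 2 passed with the mean of all probe sets (-0.40, adjusted p = 0.0434). All of these were larger at day 7, a contrast between days that was not tested. Apod (apolipoprotein D) had a signal of 1127 to 1926 (median 1382) in cast legs and 580 to 912 (median 744) in control legs at day 14, and 1291 to 1883 (median 1525) in cast legs and 655 to 1128 (median 849) in control legs at day 2. The legs were separate at both days, with cast legs higher, and the difference was 0.19 (SE 0.23, adjusted p = 0.674). Chrna1, the acetylcholine receptor subunit that spreads over the fibre after loss of nerve supply, had a response of 0.59 at day 14 and 0.66 at day 2, and the RNA host genes Snhg10 and Snhg4 were higher in 9 of 9 pairs at both days.

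Shifted genes kept a direction with a change in size. Cirbp, a cold-inducible RNA-binding protein, had a signal of 126 to 285 (median 227) in cast legs and 140 to 190 (median 173) in control legs at day 14, and 320 to 674 (median 539) in cast legs and 82.8 to 185 (median 159) in control legs at day 2. The legs were separate at day 2 and overlapped at day 14. The response was 1.83 at day 2, 1.19 at day 7 and 0.39 at day 14 (difference -1.44, SE 0.19, adjusted p = 4.4e-08). Eda2r, a receptor of the TNF receptor family, differed by -1.39 (SE 0.23, adjusted p = 7.88e-06) and Arrdc4 by -1.09 (SE 0.20, adjusted p = 2.63e-05). Cirbp missed the threshold at day 14 with no filter, with the mean of all probe sets and without a block (adjusted p of 0.0525 to 0.0651). Cirbp and Eda2r were early genes without the 4 animals with a high median signal, and Eda2r was one without the day 14 animal that lay apart and with a fixed block for each animal (adjusted p = 0.0673 at day 14). Chrnb1, another acetylcholine receptor subunit, went the other way, with 0.87 at day 14 and 0.30 at day 2 (difference 0.57, SE 0.15, adjusted p = 0.00414), and was a late gene without the day 2 animal that lay apart.

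Fibre proteins and respiratory chain genes gave few calls. Of 19 slow and 20 fast fibre proteins 0 passed for the difference (6 and 0 at an unadjusted p under 0.05), and of 72 genes of oxidative phosphorylation 1 was higher and 1 lower. With a fixed block for each animal, the slow fibre proteins Tnnt1 (adjusted p = 0.0284) and Atp2a2 (0.0219) passed, both lower. The difference for Tnnt1 was -0.57 (adjusted p = 0.349) without the day 2 animal with a high median signal. With quantile normalization the fast fibre proteins Acta1 (0.018), Ckm (0.0169) and Tpm1 (0.0144) passed, all higher. Slow fibre proteins were lower in cast legs in 8 of 19 at day 14 and in 4 of 19 at day 2. Myh7, the slow myosin heavy chain, had a response of -0.83 at day 14 (adjusted p = 0.0469) and 0.03 at day 2, with an unresolved difference of -0.86 (SE 0.42, adjusted p = 0.167). With a fixed block for each animal that difference passed (adjusted p = 0.0187), as it did with only the casting arrays of day 14 and day 2 in the fit (adjusted p = 0.0152). Without the 4 animals with a high median signal it was -0.55 (adjusted p = 0.559), with a day 2 response of -0.22. The day 14 call of Myh7 was lost with a pseudocount of 1 (adjusted p = 0.0505), with no filter (0.056), with the mean of all probe sets (0.0576), without a block (0.0687) and without the 4 animals with a high median signal (0.193). Runx1, a transcription factor induced by denervation, had one of 0.93 at day 14 (adjusted p = 0.00433) and 0.07 at day 2, with a difference of 0.86 (SE 0.34, adjusted p = 0.0755). The difference for Runx1 passed with a pseudocount of 16 (adjusted p = 0.0164) and with array weights (adjusted p = 0.0473). The clock genes Dbp, Arntl and Per1 and the cell cycle inhibitor Cdkn1a passed in none of the comparisons of day 14, day 2 and their difference. With a fixed block for each animal, Per1 (adjusted p = 0.0393 at day 14 and 0.0417 at day 2) and Cdkn1a (0.00074 and 0.0202) passed at both days and Dbp at day 14 (0.0478). Cdkn1a also passed at day 14 with a stricter filter (adjusted p = 0.0427) and with array weights (0.0245).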

How the data were processed

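Per the labels' protocols, RNA came from each whole gastrocnemius (Trizol, then RNeasy), and biotinylated cRNA was hybridised to 1 array per muscle. The deposited intensity values are linear signals that the authors made with MAS5 and GCOS, per the submitters' processing notes, and the versions and scaling target are not given in the sources used here. Trimmed means of 99.958 to 99.965 in each of the 37 casting arrays of day 14 and day 2 showed scaling to a common level. The trimmed means of the naive and day 7 arrays were not read.

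A pseudocount of 3.982, the 20th percentile of the deposited signals, was added before taking log2. Of 45101 probe sets, 34958 named 1 gene by the platform annotation, 932 several and 9211 none. Of the 34958, 34754 took their symbol from the reference gene table by gene identifier, whether or not it changed. A probe set was tested when above the array's 40th percentile in at least 5 arrays, and the brightest was kept per gene (16029 of 18194 genes). Using R 4.3.3 and limma 3.58.1, 1 model held 16 group means over 111 arrays, an intensity trend and a random effect of animal (correlation 0.0964). Benjamini-Hochberg adjustment ran over all tested genes of a comparison, with a threshold of 0.05. Leg pairs share an animal number in the labels, and over 18 pairs the mean correlation of residuals was 0.0482, with 6 over 0.1. On simulated data for the difference between days over 16029 genes, 48% of 50 genes changed by 0.5 (log2) and 80% of those changed by 1 were recovered, and 9 of 171 calls were false.

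Named genes were those with the largest effects in each class and direction among genes with that sign in at least 8 of 9 pairs (6 genes, and for reversed and shifted genes 6 and 3 by difference alone), up to 4 members per list by p for the difference, and a list of always-named genes. Members, lists and always-named genes were chosen with earlier results of these data known. Figures used Python 3.11.15 with matplotlib 3.10.9. Promoter sequences came from RefSeq tables of GRCm38.p6. Alternatives covered the pseudocount, filter, probe set choice, normalization, arrays in the fit, block and array weights.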

Additional observations from a re-analysis of the deposited data

Results flagged for a closer look

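The leg differences (cast minus control leg, log2) of 65 genes named by the class rules or always named were searched for a single animal far from the others, at day 14 and at day 2. Such an animal stood out in 15 of 130 groups of 9 pairs, where chance gives about 1 in 20. At day 14 the animal's value was 0.67 for Tmem37 (median of the pairs 0.01), 3.56 for Il6 (median 1.33), -0.45 for Cirbp (median 0.48), 0.79 for Hspa1a (median -0.85), -0.81 for Fbxo32 (median 0.45) and -0.75 for Arntl (median 0.05). At day 2 it was -0.38 for Tbc1d1 (median 1.99), -1.57 for Pole (median 0.88), 0.058 for Casq2 (median -1.32), -4.10 for Serpinb1a (median -0.42), 0.77 for Cirbp (median 1.91), -0.049 for Eda2r (median 1.93), -3.62 for Mt1 (median -0.32), 1.27 for Cdkn1a (median 0.34) and 2.08 for Myh7 (median -0.19). One animal of day 2 gave the values of Tbc1d1, Cirbp and Eda2r, another the other 6 of that day, and 1 animal of day 14 gave those of Cirbp, Hspa1a and Fbxo32.

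The 6 reversed genes with the largest difference between the days were chosen from these same data. Their opposite directions at day 14 and day 2 follow from that choice, and the size of their differences is no separate support. The difference was 3.29 for Timp1, 2.73 for Socs3, 2.43 for Serpinb1a, 2.42 for Ankrd1, 2.12 for Ccl2 and 2.02 for Ms4a6d. Serpinb1a and Ms4a6d, which are not described above, were higher in the cast leg in 8 and 9 of 9 pairs at day 14 and in 1 and 2 of 9 at day 2. Their reversal depends on 1 animal. Without the day 2 animal that gave the Serpinb1a value of -4.10, neither passed at day 2 (adjusted p = 0.22 and 0.156), and without all 4 animals with a high median signal neither did (0.228 and 0.17), so that both were late genes.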

How the results depend on the processing

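Under every alternative setting but 1, the counts of genes higher or lower at day 14, early, late and sustained stayed within 1.5 times their values. The exception leaves out the casting animals with an array whose median signal was over 22, a setting added after seeing the data, which gave 631 genes lower at day 14 and 412 sustained genes; fewer animals enter this fit, and the cause was not tested. With the animal as a fixed replicate block, 1270 genes were higher and 932 lower at day 14, with 1217 early, 522 late and 653 sustained genes, and without a replicate block the counts were 1126, 833, 1156, 394 and 538. Also chosen after seeing the data was leaving out single animals that stood apart, which gave 1121 to 1457 genes higher and 864 to 1085 lower at day 14. Quantile normalization gave 1148 higher and 1073 lower. Counts of reversed and shifted genes varied more. Without the animals over 22 there were 74 reversed and 24 shifted genes, and with array weights 286 and 177. The genes within a class changed more than these counts show. With the mean of all probe sets of a gene, 812 of the 1320 early (61.5%), 295 of the 495 late (59.6%) and 376 of the 639 sustained genes (58.8%) stayed in their class. In that setting 93 of the 159 reversed (58.5%) and 48 of the 97 shifted genes (49.5%) did so. Over the named genes and all settings, the difference stayed on its side of the threshold in 2917 values, lost the threshold in 66 and gained it in 47. It changed sign with a pass in the main or the other fit in 0 values. Sign changes where neither fit passed were counted among the 2917. The planned setting without arrays with a raised low end was not run because it met 0 arrays. The low signals of genes such as Il6 limit their fold changes, which the pseudocount shrinks.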
